A study of Oryza sativa with 6 samples.

Results

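The first stretches of rice chromosomes 11 and 12, a pair of blocks that arose as copies of one another, were examined in panicle transcriptomes of wild-type plants and of plants overexpressing OsEXPA7. Members were taken by identifier alone, from LOC_Os11g01010 to LOC_Os11g06990 and from LOC_Os12g01010 to LOC_Os12g06990, less 13 loci that were left out by name. This gave 1006 of the 42189 loci in the deposited table, 515 on the arm of chromosome 11 and 491 on the arm of chromosome 12. Identifiers of this form carry the chromosome first and then a number that grows along it.

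Panicles of Oryza sativa, cultivar Nipponbare, were sampled in 2 groups of 3 libraries each. The wild-type group carries the genotype label EXPA7 and the overexpression group the label EXPA7_OE. The treatment field reads natural in both groups. OsEXPA7 is an alpha-expansin, one of the proteins that loosen plant cell walls. No label gives the promoter of the transgene, the number of transgenic lines, the panicle stage, or whether replicates came from separate plants. The titles call the replicates biological without saying what a replicate is. The p-values therefore set the difference between groups only against the spread of these libraries, which may still be partly technical. Values are TPM, a length-corrected share of all transcripts with the same total in every library, which keeps no sequencing depth. In bulk tissue, fewer cells of a type and less RNA per cell cannot be told apart. The locus paired with OsEXPA7 from general knowledge, LOC_Os03g60720, measured 935 ± 45.7 TPM in wild type and 4782 ± 403 TPM with overexpression (SD, n = 3), with every overexpression library above every wild-type library.

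The ends of the short arms of chromosomes 11 and 12 hold one of the best-known segmental duplications in the rice genome. The gene order of one copy follows that of the other, and exchange between the copies (gene conversion) has kept many gene pairs nearly alike in sequence. Reads from such pairs can fit either copy, so the split of TPM between the arms depends on how the authors' tool placed them, which the labels do not describe. The table names no gene and pairs no locus with its copy, and none of the 1006 identifiers was found in the reference gene table, so loci are given by identifier and no role is attached to them.

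More of the duplicated segment was expressed than of the rest of its chromosomes. Of the 515 loci on the arm of chromosome 11, 84 were listed at 0 in all 6 libraries, 105 were above 0 but did not reach 1 TPM in at least 3 libraries, and 326 reached it and were tested. For the arm of chromosome 12 the numbers were 81, 91 and 319 of 491. Listed at 0 throughout were thus 16.3% and 16.5% of the loci of the 2 arms, against 32.9% on the rest of chromosome 11, 29.1% on the rest of chromosome 12 and 22.0% elsewhere. The tested share was 63.3% and 65.0% on the arms, 39.0% and 44.5% on the rest of the 2 chromosomes, and 57.0% elsewhere. These shares are descriptions and their difference was not tested. Among tested loci the median level was 11.6 TPM on the arm of chromosome 11 and 12.6 TPM on that of chromosome 12, against 9.95 TPM on the rest of chromosome 11, 13.0 TPM on the rest of chromosome 12 and 15.3 TPM over all tested loci.

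Replicates agreed closely over the segment. Pearson correlations of log2(TPM + 1) across the tested loci of an arm were 0.989 to 0.994 between libraries of one genotype and 0.959 to 0.968 between genotypes; these run across loci, which are not independent. The median coefficient of variation was 8.25% in wild type and 8.69% with overexpression on the arm of chromosome 11. It was 8.51% and 8.62% on the arm of chromosome 12.

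On both arms more loci fell than rose with OsEXPA7 overexpression. On the arm of chromosome 11, 53 of 326 tested loci rose and 76 fell, while 197 did not reach the threshold, an adjusted p under 0.05 by limma on log2(TPM + 1). Of 319 tested loci on the arm of chromosome 12, 59 rose, 77 fell and 183 did not pass. The share called, 39.6% and 42.6%, was near the 42.8% called over all 23395 tested loci. The split by direction differed from that of the whole table. Loci that rose were 16.3% and 18.5% of the tested loci of the arms, against 25.3% of all tested loci. Loci that fell were 23.3% and 24.1%, against 17.5%. On the rest of chromosome 11, 21.1% rose and 19.3% fell, and on the rest of chromosome 12, 20.7% rose and 19.8% fell. Whether the segment differs from the rest in this split was not tested.

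The majority of falls held under each scaling tried, while its size moved. Of the loci called, 41.1% were higher on the arm of chromosome 11 as deposited, 34.8% when scaled by the median of ratios and 31.9% when quantile-normalized. For the arm of chromosome 12 these shares were 43.4%, 36.6% and 32.0%. Over the whole series 59.1% of called loci were higher as deposited, and that share was not determined for the other scalings. Both scalings also lowered the median change over the series, from 0.056 to 0.0046 by median of ratios and to -0.021 by quantiles. Whether the growing majority of falls is particular to the segment was not tested. As deposited, the median log2 change was -0.039 on the arm of chromosome 11 and -0.046 on that of chromosome 12, against 0.056 over all tested loci. Without wild-type replicate 3 the median of the arm of chromosome 11 was 0.0043. Most single changes were small: the median size of a log2 change, whatever its sign, was 0.21 and 0.23 on the arms and 0.23 over all loci. The groups did not overlap at 168 of 326 and 167 of 319 loci, 51.5% and 52.4%, against 53.7% of all tested loci; all 129 and 136 called loci were among these.

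**Figure D1:**
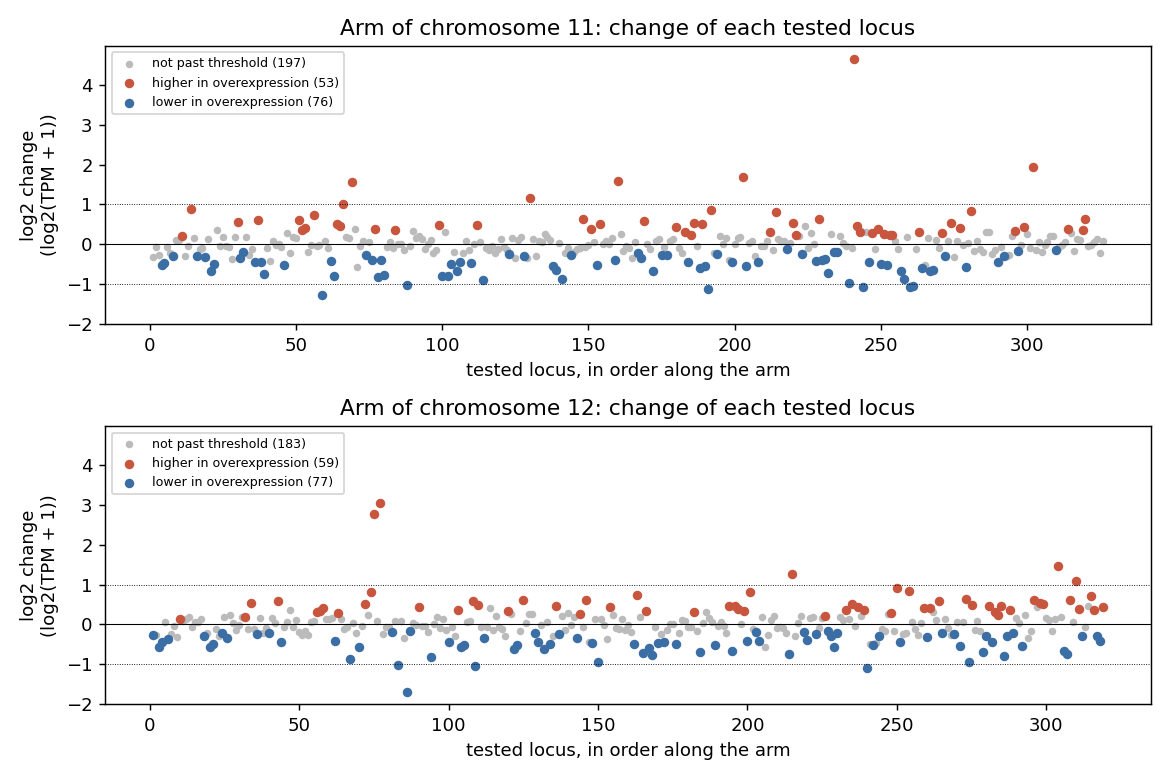
Log2 change (overexpression minus wild type, on log2(TPM + 1)) of each tested locus, in order along the arm of chromosome 11 (top, 326 loci) and of chromosome 12 (bottom, 319 loci); dotted lines mark a 2-fold change. Higher (53 and 59) and lower (76 and 77) loci are spread along both arms, and most lie within the dotted lines.

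Changes of at least 2-fold were few. On the arm of chromosome 11, 7 loci rose and 6 fell at least 2-fold, and on the arm of chromosome 12, 5 rose and 4 fell. These 22 loci are 3.99% and 2.82% of the tested loci of the arms, against 4.82% of all tested loci. Among the latter, 3.25% rose and 1.57% fell by that much. Groups did not overlap at any of the 22. Of the 12 that rose, 7 had a wild-type mean under 1 TPM, 4 on the arm of chromosome 11 and 3 on that of chromosome 12. Of the 10 that fell, 5 had a wild-type mean under 5 TPM. No locus of either arm was listed at 0 throughout one genotype and at 1 TPM or more in every library of the other, while 26 loci of the whole table were so in wild type and 5 with overexpression. With a pseudocount of 0.1 in place of 1, which enlarges the folds of low loci, 12 and 7 loci fell at least 2-fold, and 9 and 8 rose.

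LOC_Os11g05380 had the largest rise on the arm of chromosome 11. It measured 0.148, 0.105 and 0.0811 TPM in the wild-type libraries and 29.9, 26.0 and 26.1 TPM in the overexpression libraries. It was close to 0 in every wild-type library and well expressed in every overexpression library. It rose by 4.67 ± 0.10 (SE) on the log2 scale (limma adjusted p = 4.25e-09).

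LOC_Os11g06440 was the next on the log2(TPM + 1) scale, on which 3 lower loci with higher ratios of means rank below it. It measured 17.2, 16.3 and 17.3 TPM in wild type and 69.6, 66.8 and 68.6 TPM with overexpression, so it was already expressed in wild type and stood 4.02-fold higher in the other group. Its log2 change was 1.95 ± 0.06 (SE; limma adjusted p = 2.75e-08). The other 5 loci of this arm that rose at least 2-fold had log2 changes down to 1.01.

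Falls on the arm of chromosome 11 are given for the 2 largest among loci with at least 5 TPM in wild type. LOC_Os11g02130 measured 10.8, 8.89 and 10.9 TPM in wild type and 2.90, 4.20 and 3.89 TPM with overexpression, a log2 change of -1.27 ± 0.13 (SE; limma adjusted p = 8.69e-05). LOC_Os11g05690 measured 24.2, 24.5 and 24.0 TPM in wild type and 11.9, 10.9 and 10.9 TPM with overexpression, a log2 change of -1.05 ± 0.07 (SE; limma adjusted p = 5.95e-06). Every wild-type library stood above every overexpression library at both loci. The other 4 loci that fell at least 2-fold had wild-type means from 2.82 TPM upwards and log2 changes between -1.125 and -1.04.

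On the arm of chromosome 12 the largest rises lay near each other in locus order. LOC_Os12g02240 measured 0.164, 0.0566 and 0.236 TPM in wild type and 11.6, 5.63 and 9.42 TPM with overexpression. Its log2 change was 3.06 ± 0.22 (SE; limma adjusted p = 7.34e-06), and overexpression replicate 2 was the lowest of its group. LOC_Os12g02210 measured 0.217, 0 and 0.482 TPM in wild type and 7.99, 7.25 and 6.68 TPM with overexpression, a log2 change of 2.77 ± 0.16 (SE; limma adjusted p = 1.84e-06). LOC_Os12g02230 lies between them in number and did not pass the threshold, at 17.7 ± 2.67 TPM in wild type and 18.8 ± 0.757 TPM with overexpression (SD, n = 3; limma adjusted p = 0.527). It is named here after its values were seen.

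Among the loci that fell on the arm of chromosome 12, LOC_Os12g02340 had the largest change. It measured 30.2, 22.8 and 28.6 TPM in wild type and 7.32, 9.10 and 6.75 TPM with overexpression, a 3.52-fold lower mean. Its log2 change was -1.69 ± 0.13 (SE; limma adjusted p = 1.25e-05), the largest fall on either arm on the log2(TPM + 1) scale. By ratio of means, a locus of lower level on the arm of chromosome 11 fell further, 3.75-fold, from 2.87 to 0.764 TPM. LOC_Os12g02720 measured 28.4, 30.2 and 29.3 TPM in wild type and 14.9, 13.3 and 12.9 TPM with overexpression, a log2 change of -1.05 ± 0.08 (SE; limma adjusted p = 8.25e-06). The groups stood clear of each other at both loci.

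**Figure D2:**
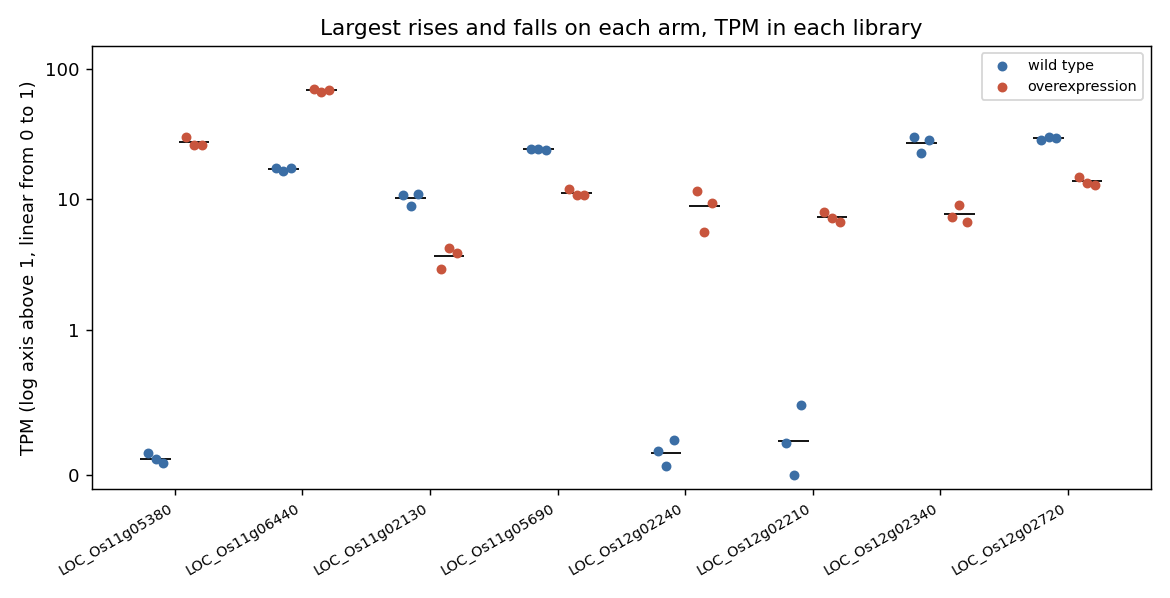
TPM in each library (points) and group mean (lines) of the 2 largest rises and 2 largest falls on each arm, by log2(TPM + 1), among loci with at least 5 TPM in the higher group; the vertical axis is logarithmic above 1 TPM and linear below. LOC_Os11g05380, LOC_Os12g02240 and LOC_Os12g02210 sit under 0.5 TPM in wild type and above 5 TPM with overexpression, while the other rise and the 4 falls start from 8.89 TPM or more.

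The summed TPM of the segment was slightly lower with overexpression on both arms. The loci of the arm of chromosome 11 summed to 16667, 16602 and 16297 TPM in the wild-type libraries and to 15801, 15352 and 15661 TPM in the overexpression libraries. Every wild-type library was above every overexpression library, and the mean fell by 5.55% with overexpression. Sums on the arm of chromosome 12 were 11911, 11842 and 11829 TPM in wild type and 11287, 10955 and 11306 TPM with overexpression, again with no overlap, and the percent change of the mean was -5.71%. The exact two-sided permutation p was 0.1 for each arm, the smallest that 3 against 3 libraries can give. In wild type the arm of chromosome 11 thus held 1.65% of all TPM and the arm of chromosome 12 held 1.19%. The likeness of the 2 percent changes rested on the most abundant locus of each arm. With that locus left out they were -2.88% on the arm of chromosome 11 and -8.41% on that of chromosome 12.

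The balance between the arms did not move detectably. The sum of the arm of chromosome 11 was 1.40, 1.40 and 1.38 times that of the arm of chromosome 12 in the wild-type libraries and 1.40, 1.40 and 1.39 times in the overexpression libraries. The exact two-sided permutation p was 0.8, and the groups overlapped. This ratio rested on the most abundant locus of each arm. With that locus left out on each, the ratio was 1.40 ± 0.022 in wild type and 1.49 ± 0.017 with overexpression (SD, n = 3), with no overlap and an exact permutation p of 0.1. The sums rested on few loci as well. Without the 10 most abundant loci of each arm, an alternative added after the values were seen, the percent change of the mean was -2.01% on the arm of chromosome 11 and -0.981% on the arm of chromosome 12. The groups then overlapped on both arms, with exact permutation p of 0.2 and 0.6.

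**Figure D3:**
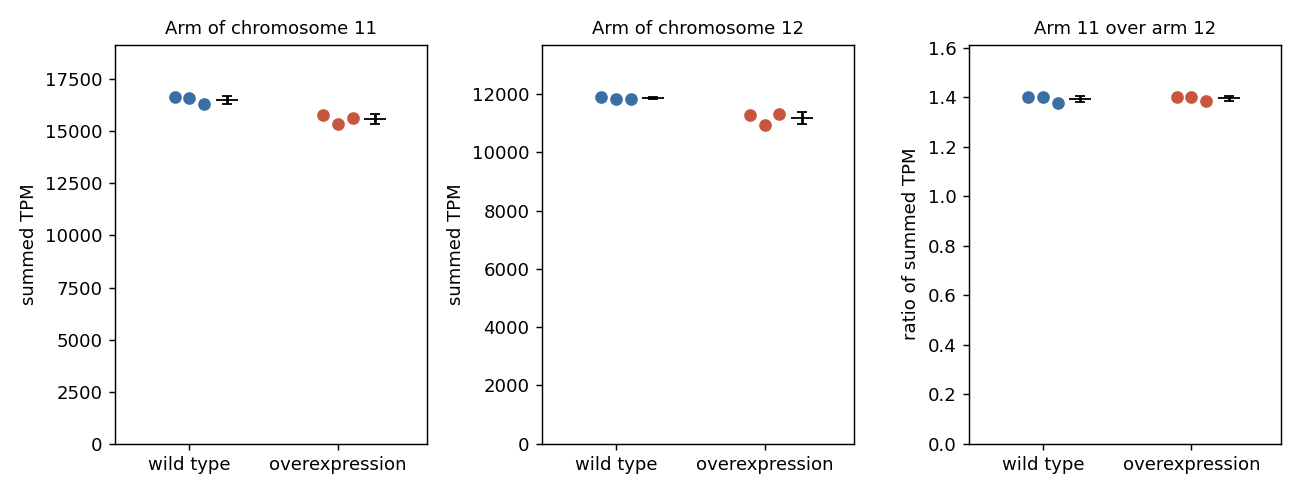
Summed TPM of the loci of each arm and the ratio of the 2 sums, in each library (points) with mean and SD (black, n = 3 per genotype). Overexpression libraries lie below wild-type libraries on both arms, at 15352 to 15801 against 16297 to 16667 TPM on the arm of chromosome 11, while the ratio stays between 1.38 and 1.40 in all 6.

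A few loci carried much of the output of each arm. The 3 most abundant loci held 37.1% ± 0.328 of the summed TPM of the arm of chromosome 11 in wild type and 35.5% ± 1.03 with overexpression (SD, n = 3). The 3 most abundant of the arm of chromosome 12 held 31.2% ± 1.01 and 30.9% ± 1.48. LOC_Os11g02330, LOC_Os11g02350 and LOC_Os11g06720 were the 3 on the arm of chromosome 11, and LOC_Os12g02300, LOC_Os12g02290 and LOC_Os12g02310 those on the arm of chromosome 12. A range chosen after the values were seen, from LOC_Os11g02190 to LOC_Os11g02440 and from LOC_Os12g02190 to LOC_Os12g02440, made up 5.05% and 5.09% of the loci of the 2 arms. In wild type it gave 37.3% and 33.0% of the arms' summed TPM.

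LOC_Os11g02330, the most abundant locus of the segment, measured 3004, 2921 and 2854 TPM in wild type and 2452, 2339 and 2408 TPM with overexpression. It fell, with a log2 change of -0.29 ± 0.04 (SE; limma adjusted p = 0.000297). After quantile normalization the change was -0.019 and did not pass (limma adjusted p = 0.54). LOC_Os12g02290 on the other arm measured 1082, 1054 and 1028 TPM in wild type and 948, 867 and 933 TPM with overexpression. Its log2 change was -0.20 ± 0.04 (SE; limma adjusted p = 0.00604), and after quantile normalization it did not pass either (limma adjusted p = 0.636).

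LOC_Os11g02350 measured 1975, 1948 and 1790.5 TPM in wild type and 2104, 1775 and 2044 TPM with overexpression. LOC_Os12g02300 measured 2219.65, 2208 and 2069.96 TPM in wild type and 2409, 2104 and 2397 TPM with overexpression. Neither passed the threshold (limma adjusted p = 0.583 and 0.254), and at both the groups overlapped. Both had their lowest wild-type value in replicate 3 and their lowest overexpression value in replicate 2. This was not particular to them: LOC_Os11g02330, LOC_Os11g02369, LOC_Os12g02290, LOC_Os12g02310 and LOC_Os03g60720 on chromosome 3 had the same pattern, while LOC_Os11g06720 did not. After quantile normalization LOC_Os11g02350 and LOC_Os12g02300 passed as higher, with log2 changes of 0.13 and 0.29 (limma adjusted p = 0.0115 and 7.91e-05). Without overexpression replicate 2, LOC_Os12g02300 passed as higher (limma adjusted p = 0.0222).

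The other pair of abundant neighbours moved by different amounts on the 2 arms. LOC_Os12g02310 measured 495, 491 and 455 TPM in wild type and 248, 227 and 232 TPM with overexpression, a log2 change of -1.02 ± 0.05 (SE; limma adjusted p = 8.49e-07). LOC_Os11g02369 measured 1001, 997 and 841 TPM in wild type and 734, 700.0 and 702 TPM with overexpression, a log2 change of -0.41 ± 0.07 (SE; limma adjusted p = 0.00124). Every wild-type library stood above every overexpression library at both. LOC_Os11g02369, the fifth most abundant locus of its arm, was chosen after its values were seen, to set 3 loci of one arm beside 3 of the other.

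Ratios between these loci, taken in locus order, were compared within each library. LOC_Os11g02330 stood at 2.77 ± 0.003 times LOC_Os12g02290 in wild type and 2.62 ± 0.067 times with overexpression (SD, n = 3). LOC_Os11g02350 stood at 0.879 ± 0.013 and 0.857 ± 0.015 times LOC_Os12g02300. LOC_Os11g02369 stood at 1.97 ± 0.104 times LOC_Os12g02310 in wild type and 3.02 ± 0.063 times with overexpression. The ratios of LOC_Os11g02330 and of LOC_Os11g02369 did not overlap between genotypes (exact two-sided permutation p = 0.1 for each, the smallest possible), and that of LOC_Os11g02350 did (exact permutation p = 0.2). These loci were set against each other for their place and level after the values were seen; nothing in the files says that they are copies of one another.

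**Figure D4:**
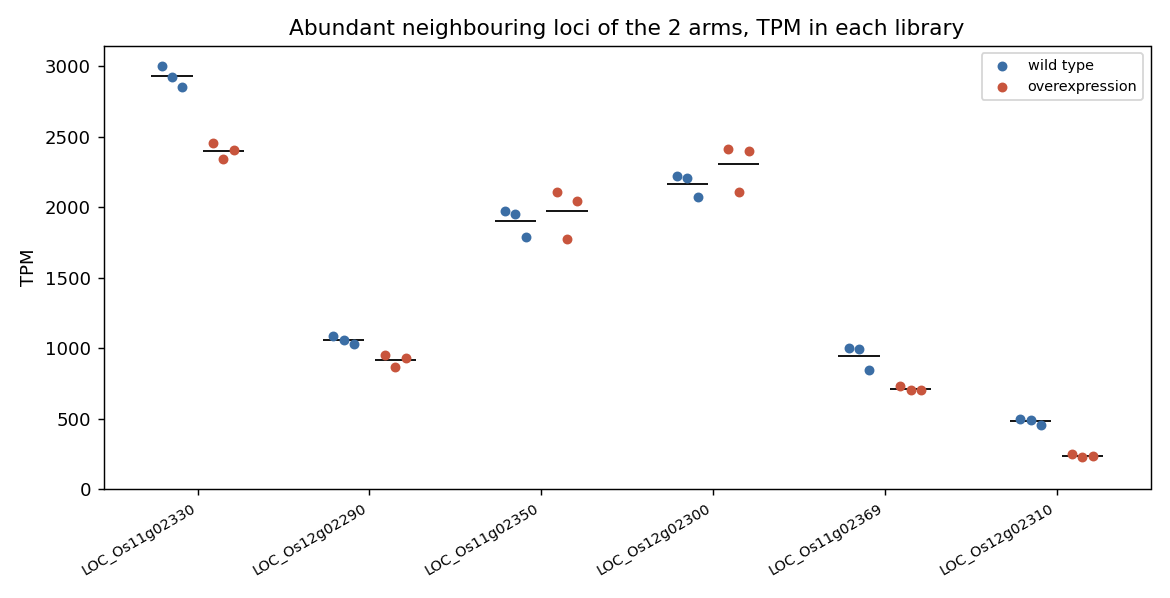
TPM in each library (points) and group mean (lines) of 3 abundant loci on the arm of chromosome 11, each beside the locus of the arm of chromosome 12 that it was compared with. LOC_Os12g02310 falls from 455 to 495 TPM in wild type to 227 to 248 TPM with overexpression, while LOC_Os11g02350 and LOC_Os12g02300 overlap between genotypes.

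The stretch chosen above held changes in both directions, and its counts include loci already named. Of its 18 tested loci on the arm of chromosome 11, 5 rose, 5 fell and 8 did not pass. Of 19 on the arm of chromosome 12, 4 rose, 4 fell and 11 did not pass. Changes of at least 2-fold numbered 2 and 4. The 4 on chromosome 12 were LOC_Os12g02210, LOC_Os12g02240, LOC_Os12g02310 and LOC_Os12g02340, all given above. Among all tested loci 42.8% were called and 4.82% changed by that much. The stretch was chosen after its values were seen, so its counts cannot be weighed against these shares. The rises included LOC_Os11g02240, from 9.16 ± 1.49 to 19.3 ± 2.22 TPM, and LOC_Os12g02200, from 11.5 ± 1.14 to 21.2 ± 2.03 TPM (SD, n = 3). The falls included LOC_Os11g02424, from 86.9 ± 6.33 to 50.7 ± 4.59 TPM (SD, n = 3). By limma all 3 passed, at adjusted p from 9.01e-05 to 0.000218; they are named after their values were seen.

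The count of rises and falls was also read along the arms. Each arm was divided into 6 bins of equal width in locus number. In the first 5 bins of each arm more loci fell than rose, as deposited and under both other scalings. In the sixth bin of the arm of chromosome 12, 17 of 47 tested loci rose and 13 fell, with a median log2 change of 0.14. Of the tested loci of this bin 63.8% were called, the highest share of the 12 bins, against 42.8% of all tested loci. This bin held 16 rises and 14 falls with median-of-ratios scaling, and 16 and 15 after quantile normalization. The sixth bin of the arm of chromosome 11 had 7 rises and 5 falls among 49 tested loci, and 7 of each under both other scalings. Its median log2 change was -0.015, against 0.0086 in the fifth bin, so the median did not follow the count there. Its share called, 24.5%, was the lowest. In the fifth bin of that arm 15 rose and 21 fell among 61, a share of 59.0%. Over all 23395 tested loci, 25.3% rose and 17.5% fell. Each bin held only 46 to 65 tested loci, and the shares singled out are extremes among 12. Whether the bins differ from each other or from all loci was not tested. The bins with the abundant stretch, the second of each arm, summed to 6943 ± 257 TPM in wild type and 6097 ± 243 TPM with overexpression on chromosome 11, and to 5048 ± 152 and 4649 ± 239 TPM on chromosome 12 (SD, n = 3).

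**Figure D5:**
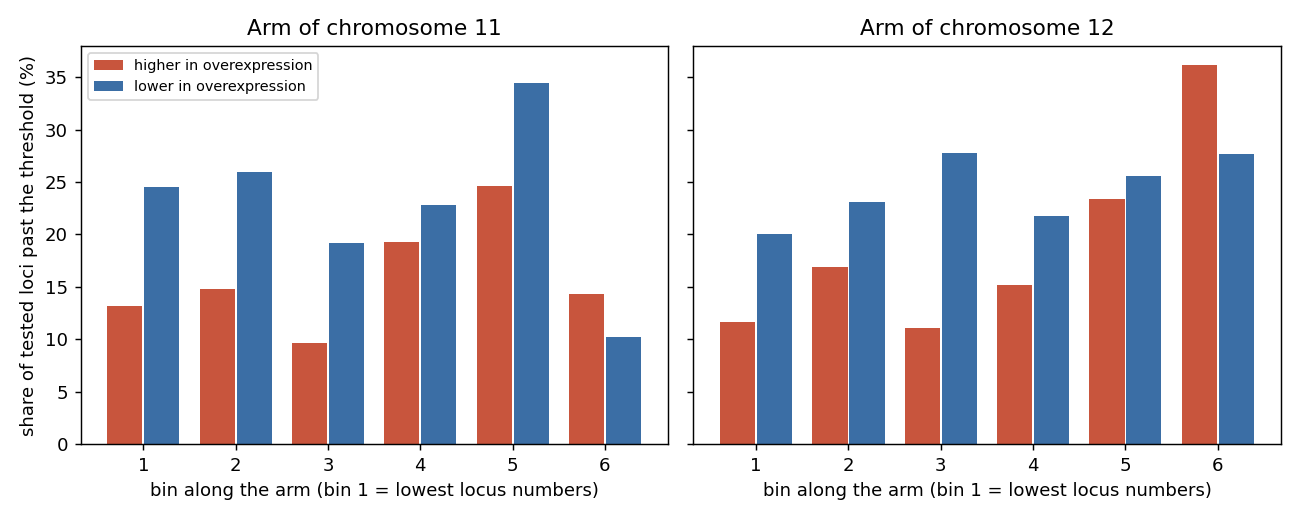
Share of tested loci (percent) that passed the threshold as higher (red) or lower (blue) with overexpression, in 6 bins along each arm, bin 1 having the lowest locus numbers. Lower loci outnumber higher ones in bins 1 to 5 of both arms. Higher ones outnumber lower ones in bin 6, 17 to 13 on chromosome 12 and 7 to 5 on chromosome 11. Over all tested loci 25.3% were higher and 17.5% lower, and differences between bins were not tested.

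The direction of the calls was also read by level class, without a test. Of 41 loci between 50 and 500 TPM on the arm of chromosome 12, 20 fell, 9 rose and 12 did not pass, with a median log2 change of -0.16. Among the 32 of that class on the arm of chromosome 11, 9 fell, 4 rose and 19 did not pass. Over all 4008 such loci of the table, 1007 fell and 1214 rose. The share called in this class was 40.6% on the arm of chromosome 11 and 70.7% on that of chromosome 12, against 55.4% of all such loci. At 500 TPM and above, 4 of 5 loci fell on the arm of chromosome 11 and 1 of 2 on that of chromosome 12, and none rose, while 95 of all 200 such loci fell and 45 rose. Between 5 and 50 TPM, 41 of 191 loci rose and 42 fell on chromosome 11. On chromosome 12, 32 of 183 rose and 39 fell. Over all 13788 loci of this class 3752 rose and 2163 fell. The share called was 43.5% and 38.8% on the arms, near the 42.9% of all loci of the class. Under 5 TPM, 8 of 98 loci rose and 21 fell on chromosome 11, a share called of 29.6%. On chromosome 12, 18 of 93 rose and 17 fell, a share of 37.6%. Over all 5399 loci of this class 900 rose and 826 fell, a share of 32.0%. Whether the arms differ from all loci in any level class was not tested.

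Neighbouring loci were read in pairs. Among 285 pairs of successive tested loci on the arm of chromosome 11 whose numbers differed by at most 30, 17 pairs fell together, 8 rose together and 25 went opposite ways. For chromosome 12 the counts were 14, 9 and 25 of 278 pairs. On the 2 arms 23.3% and 24.1% of tested loci fell and 16.3% and 18.5% rose, so some neighbours share a direction through these shares alone. Whether neighbours did so more often than that was not tested. The longest run of successive tested loci called in one direction was 4, all lower, from LOC_Os12g05040 to LOC_Os12g05080. Within it LOC_Os12g05050, named after its values were seen, was the most abundant, at 369 ± 11.2 TPM in wild type and 304 ± 5.18 TPM with overexpression (SD, n = 3). Its log2 change was -0.28 ± 0.04 (SE; limma adjusted p = 0.0007). The 4 log2 changes of the run lay between -0.58 and -0.18.

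No locus of one arm had the same values as a locus of the other. Among loci that averaged 1 TPM or more there were 101745 cross-arm pairs, of which 0 agreed within 1% in every library, and 0 within 5%. At a tolerance of 10%, added after the values were seen, 40 pairs did. Over tested and untested loci together, locus order alone did not line the arms up clearly either. The arm of chromosome 11 was cut into 3 equal parts, and each was set against the arm of chromosome 12 at 121 offsets. Offsets went up to 60 steps of 10 in locus number either way, and only loci whose number is a multiple of 10 were used. The highest Pearson correlation of mean log2(TPM + 1) was 0.24 (offset -1, 118 pairs), 0.19 (offset -19, 127 pairs) and 0.26 (offset -8, 129 pairs) in the 3 parts. The next highest were 0.23, 0.17 and 0.19 at other offsets, and the lowest were -0.24, -0.23 and -0.29. With tested loci only, the highest were 0.51 (offset -4, 54 pairs), 0.33 (offset -31, 54 pairs) and 0.41 (offset 41, 31 pairs). In the first part the next highest was 0.34, at the adjacent offset of -5. The offset of -4 sets LOC_Os11g02330 beside LOC_Os12g02290, and that of -5 sets LOC_Os11g02350 beside LOC_Os12g02300. How far these abundant loci carry the correlations at those offsets was not tested. The lowest with tested loci were -0.325, -0.285 and -0.43. The correlations run across loci measured in the same libraries, are weak over all loci, and each best one is the highest of 121. A single offset per part cannot follow an order that shifts within the part. No locus was therefore paired with a copy in this way.

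The loci on either side of the segment's end were also read. The last tested locus inside on the arm of chromosome 11, LOC_Os11g06934, measured 18.2 ± 1.81 TPM in wild type and 19.3 ± 2.29 TPM with overexpression. LOC_Os11g07020, the first outside, measured 75.7 ± 35.4 and 82.3 ± 28.9 TPM (SD, n = 3), and neither passed (limma adjusted p = 0.574 and 0.729). At LOC_Os11g07020 replicate 3 was the lowest of both groups, at 34.9 TPM in wild type and 49.0 TPM with overexpression. LOC_Os12g06980, the last inside on the arm of chromosome 12, measured 3.32 ± 0.269 and 4.83 ± 0.816 TPM (SD, n = 3; limma adjusted p = 0.0255). It no longer passed without wild-type replicate 2 or 3 or overexpression replicate 2 or 3, with limma adjusted p from 0.0514 to 0.0835, nor without the filter on low values (limma adjusted p = 0.0545). LOC_Os12g07010, the first outside, measured 214 ± 4.81 and 233 ± 7.15 TPM (SD, n = 3; limma adjusted p = 0.0524). It passed as higher under 4 of 15 alternatives, with limma adjusted p from 0.0278 to 0.0469. LOC_Os11g06720, the remaining one of the most abundant loci of its arm, measured 1301 ± 58.6 TPM in wild type and 1167 ± 50.9 TPM with overexpression (SD, n = 3; limma adjusted p = 0.0265). It did not pass without wild-type replicate 3 (limma adjusted p = 0.0699), without overexpression replicate 3 (0.106) or after quantile normalization (0.726), nor with no filter (0.0766), no variance trend (0.109) or the replicate block (0.0518).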

How the data were processed

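Panicle RNA libraries were assigned to wild type or overexpression by their titles, 3 each. The deposited table gives TPM, which the authors scaled to the same total per library. The aligner, the quantifier and the gene models behind it were not given in the sources used here. GRCm38 and mm10, both mouse builds, stand in the submitters' processing notes, although the identifiers are of rice form; this was not resolved. Depth is unknown, so no counting interval or detection limit could be given.

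Loci that reached 1 TPM in 3 or more of the 6 libraries were tested on log2(TPM + 1) with limma 3.58.1 in R 4.3.3 (variance trend, two-sided, Benjamini-Hochberg over all 23395 tested loci). Fold changes are on that scale, which understates changes of low loci. "At least 2-fold" is a log2 change of at least 1 past the threshold. Arm sums were compared by exact permutation (SciPy 1.17.1). Named loci were, on each arm, the 2 largest rises and falls past the threshold with at least 5 TPM in the higher group and no overlap, the 3 most abundant, and the loci on either side of the end; others are identified as chosen after their values were seen. OsEXPA7 was named as a check of the labels. Alternatives were another pseudocount, filter, scaling, variance model, library weights, the replicate block, a shorter segment and leaving out each library. Members and rules were chosen with earlier results of these data known. No sequence was used, so protein identity between the arms was not analysed here.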

Additional observations from a re-analysis of the deposited data

How the results depend on the processing

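Loci past the threshold numbered 102 to 152 on the arm of chromosome 11 (129 reported) and 104 to 166 on that of chromosome 12 (136 reported) over all alternatives. Falls outnumbered rises on both arms in each. Leaving out 1 library gave 102 to 121 and 104 to 133 loci. It also gave 4 to 8 and 2 to 5 loci lower at least 2-fold, the count of 2 being on chromosome 12 without overexpression replicate 2, and medians of -0.054 to 0.0043 and -0.070 to -0.010. The medians were -0.088 and -0.097 with median-of-ratios scaling and -0.11 and -0.12 after quantile normalization; those of all loci were then 0.0046 and -0.021. A filter at 5 TPM left 4 rises and 2 falls of at least 2-fold on chromosome 11, and a pseudocount of 0.1 gave 12 falls there, and 8 rises and 7 falls on chromosome 12. Ending it at LOC_Os12g05990 left 3 such rises on chromosome 12.

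The log2 differences of the arm sums, -0.082 and -0.085 as reported, were -0.042 and -0.13 without the most abundant locus of each arm, -0.029 and -0.014 without the 10 most abundant, -0.106 and -0.107 with the segment ending at LOC_Os11g05990 and LOC_Os12g05990, and -0.139 and -0.141 with median-of-ratios scaling. That of their ratio, 0.0025, was 0.085 and -0.015 without the 1 or 10 most abundant. Without 1 library the sums gave -0.092 to -0.071 and -0.093 to -0.070. Best offsets were -4, -31 and 41 with tested loci. The cause of these shifts was not tested.

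Replicate numbers are shared between the groups, but same-numbered libraries did not deviate together (r of 0.097, -0.099 and -0.069). The highest r between a wild-type and an overexpression library was 0.201, for wild-type replicate 3 and overexpression replicate 2. The replicate block gave 116 and 127 loci past the threshold. LOC_Os11g06720 did not pass under it (limma adjusted p = 0.0518); every other locus given with its own test kept its side of the threshold. The largest rises and falls of each arm passed under all 15 alternatives. The RefSeq protein comparison was not run, for lack of sequences. With depth unknown, loci near 0 carry no detection limit.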
